A study of Papio anubis with 60 samples.

Results

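The regions described here are the H3K27me3 peaks of the 20 autosomes of the olive baboon (Papio anubis) in embryonic stem cells (ESC) and induced pluripotent stem cells (iPSC). All peaks of the 2 H3K27me3 lists with a chromosome number from 1 to 20 were taken, 51150 in ESC and 131632 in iPSC, which make 182782 of the 2116963 peaks in the 8 lists of the series. The series used chromatin immunoprecipitation with sequencing to map H3K4me3, H3K27ac, H3K27me3 and H3K9me3. H3K27me3 was measured in 12 libraries: 3 replicates each of the ESC lines B4 and B15 and of the iPSC lines 160-2 and M14939#3. Each library was made from 50000 cells grown on feeder cells, with chromatin cut by micrococcal nuclease, and no treatment or genetic change is named in the labels.

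H3K27me3 is placed by the Polycomb complex PRC2 and marks genes that are held silent but can be turned on later. In pluripotent cells it sits mainly at promoters of developmental regulators, often together with H3K4me3, the mark of active and poised promoters, in what is called a bivalent state. H3K9me3 is placed by other enzymes, is bound by heterochromatin proteins and covers repeats and gene-poor chromatin. The silencing marks are known to occupy largely separate regions, which is why H3K27me3 regions with and without H3K9me3 are given apart below.

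Each mark has a single list in each cell type, so the spread between lines or cultures is unknown, no difference could be tested, and no p-value is given. Each line belongs to 1 cell type, so cell type and line cannot be told apart. The depth behind the lists is unknown, and the number and width of called peaks move with it. Peaks at most 3 kb apart were joined to domains. A domain was in common where at least 1 bp of it was covered by an H3K27me3 peak of the other list, and one-sided otherwise. A domain was on H3K9me3 where at least 1 bp was covered by an H3K9me3 peak of the same cell type, and off H3K9me3 otherwise. Intervals are 95% Wilson intervals, which cover counting error only, and neighbouring domains are not independent.

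Most H3K27me3-covered sequence of ESC lay in domains over 5 kb, and most of that of iPSC, which had many more domains, lay in narrower ones. By number, domains under 1 kb prevailed in both lists, 61.1% in ESC and 65.8% in iPSC, with median widths over all domains of 0.520 and 0.541 kb. The ESC peaks covered 53.9 Mb (2.08% of the autosomes) in 29842 domains, and the iPSC peaks covered 90.1 Mb (3.47%) in 81604 domains. Of the ESC domains, 18223 were under 1 kb and held 12.3% of the covered sequence. Another 7275 domains of 1 to 5 kb held 21.2%, 3866 domains of 5 to 20 kb held 41.0%, and 478 domains over 20 kb held 25.5%. In iPSC 53676 domains were under 1 kb and held 24.1% of the covered sequence. The 22095 iPSC domains of 1 to 5 kb held 32.0%, the 5144 of 5 to 20 kb held 24.0%, and the 689 over 20 kb held 19.9%. Peaks covered 78.6% of the length of all ESC domains over 20 kb and 59.4% of that of all iPSC domains over 20 kb. The order turned in domains over 20 kb off H3K9me3, with 79.5% in ESC and 84.5% in iPSC. It also turned in those with at most 10% H3K9me3, with 78.5% and 81.6%.

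**Figure D1:**
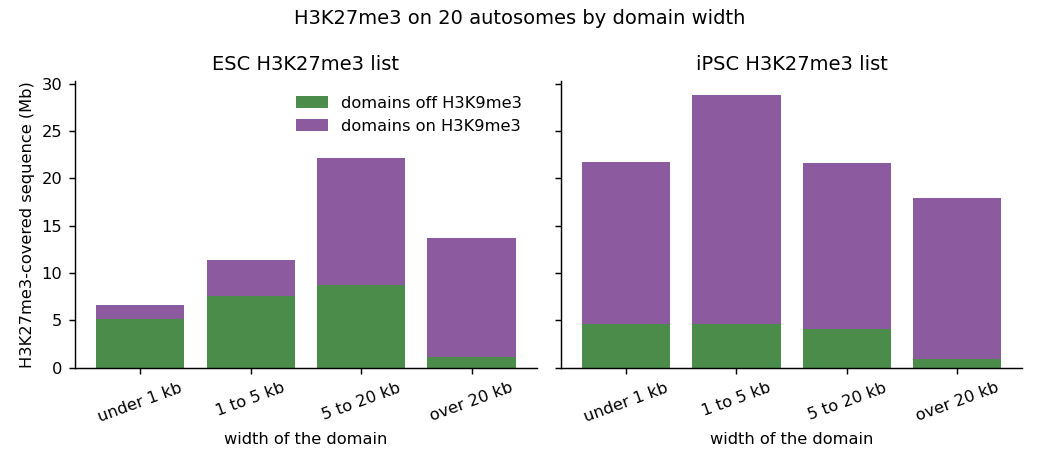
H3K27me3-covered sequence in Mb (vertical axis) by domain width class (horizontal axis) in ESC (left) and iPSC (right), with domains off H3K9me3 in green and on H3K9me3 in purple. The purple part makes up most of every iPSC bar, and in ESC it exceeds the green part only from 5 kb upward.

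The H3K27me3 of iPSC lay largely inside H3K9me3, and that of ESC hardly did. By base pairs, 64.2% of the iPSC H3K27me3 sequence (57.8 of 90.1 Mb) lay in iPSC H3K9me3 peaks, which cover 6.96% of the autosomes, so that H3K9me3 was 9.21 times as frequent there as over the autosomes. In ESC 9.93% (5.35 of 53.9 Mb) lay in ESC H3K9me3 peaks, which cover 8.46% of the autosomes, a ratio of 1.17. Seen from the other mark, H3K27me3 covered 32.0% of the H3K9me3 sequence of iPSC and 2.44% of that of ESC. Outside H3K9me3 the order of the cell types turned: 48.5 Mb of H3K27me3 in ESC and 32.3 Mb in iPSC. Of single peaks, 11118 of 51150 (21.7%) touched H3K9me3 in ESC and 100954 of 131632 (76.7%) in iPSC. Over all domains, 30.3% in ESC and 79.3% in iPSC were on H3K9me3.

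In iPSC the H3K27me3 outside H3K9me3 was the part shared with ESC, and in ESC the larger share in common was that inside it. Of the iPSC H3K27me3 base pairs outside iPSC H3K9me3, 66.7% were covered by ESC H3K27me3, against 5.56% of those inside it. The inside part was instead covered by ESC H3K9me3, over 83.2% of its base pairs. In ESC 43.3% of the base pairs outside ESC H3K9me3 and 70.0% of the few inside it were covered by iPSC H3K27me3. Of the inside part, 53.0% was also covered by iPSC H3K9me3. The background for the ESC shares was uneven: iPSC H3K27me3 covered 32.0% of the iPSC H3K9me3 sequence and 3.47% of the autosomes. For ESC H3K27me3 the values were 2.44% of the ESC H3K9me3 sequence and 2.08%. The 2 ESC shares were not corrected for this density, so their order alone does not show closer sharing inside H3K9me3. The base pairs covered in both lists made up 20.8% of those covered in either list. This share was 33.0% when only the sequence outside H3K9me3 of the same cell type was taken, and 3.72% when only the sequence inside it was.

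The share of domains in common rose with width in both cell types, and below 20 kb H3K9me3 went with it in opposite directions. Over all widths, 42.9% of ESC domains (interval 42.3 to 43.5) and 16.2% of iPSC domains (16.0 to 16.5) were in common. These shares are the background for the classes. ESC domains off H3K9me3 were in common in 16.8% under 1 kb, 49.9% at 1 to 5 kb, 86.7% at 5 to 20 kb and all 51 over 20 kb. ESC domains on H3K9me3 were in common in 52.5%, 77.3%, 95.5% and 99.8% in the same order. They were thus more often in common below 20 kb. These shares were not corrected for the density of the iPSC list, whose H3K27me3 covered 32.0% of the iPSC H3K9me3 sequence and 3.47% of the autosomes. ESC domains on H3K9me3 were also wider within a class, with medians of 8.43 kb on it and 6.99 kb off it at 5 to 20 kb. The part of density and width in the ESC order was not tested.

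In iPSC domains off H3K9me3 were the more often in common in all 4 classes, the reverse of the order in ESC in the 3 narrower ones. Domains off H3K9me3 were in common in 27.9% under 1 kb (interval 27.1 to 28.6), 85.0% at 1 to 5 kb (83.7 to 86.2), 98.8% at 5 to 20 kb (97.7 to 99.3) and all 40 over 20 kb (91.2 to 100). Domains on H3K9me3 were in common in 4.20% (4.01 to 4.40), 12.4% (11.96 to 12.9), 40.3% (38.8 to 41.7) and 55.3% (51.5 to 59.1). The shares of wide iPSC domains on H3K9me3 depended on some of the settings. Over 20 kb the share was 95.5% (of 44 domains) with only overlapping or touching peaks joined and 83.6% (of 146) at a −log10 q of at least 3, with all domains off H3K9me3 in common in both. It was 32.4% when domains of the other list had to cover at least 50% of the domain, and 33.0% when H3K9me3 had to. At 5 to 20 kb the shares in the same order were 79.9%, 61.4%, 27.6% and 12.2%, against 99.7%, 99.2%, 93% and 83% off H3K9me3. Other settings moved the shares on H3K9me3 less. At a −log10 q of at least 2 they were 52.8% over 20 kb and 40.3% at 5 to 20 kb. With H3K9me3 limited to that value they were 53% and 36.1%. Any overlap is easier for a wide domain than for a narrow one, and the longer iPSC list makes it easier for ESC domains. The base pairs covered by the other list leave the first of these aside: ESC H3K27me3, which covers 2.08% of the autosomes, covered 25.01%, 60.7%, 76.4% and 94.5% of the length of iPSC domains off H3K9me3 from the narrowest to the widest class. On H3K9me3 it covered 2.97%, 6.56%, 23.3% and 24.5%.

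**Figure D2:**
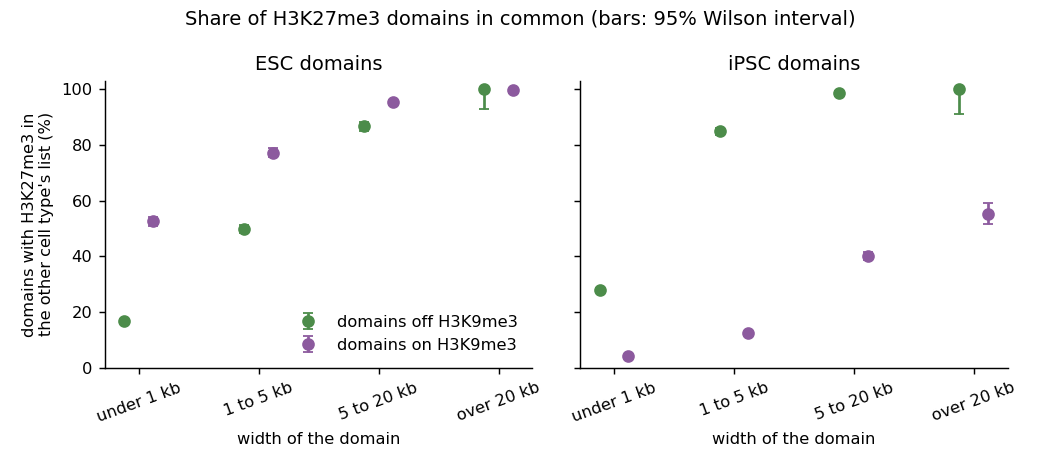
Percent of H3K27me3 domains with H3K27me3 of the other cell type (vertical axis) by width class (horizontal axis) for ESC domains (left) and iPSC domains (right), off H3K9me3 in green and on H3K9me3 in purple, with 95% Wilson intervals. The purple points lie above the green ones in the 3 narrower ESC classes and below them in all 4 iPSC classes.

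Where domains off H3K9me3 of the 2 cell types were paired by overlap, the ESC domain was mostly the broader. Pairing by overlap selects shared regions. Most domains off H3K9me3 were one-sided, 14494 of 20810 in ESC and 9866 of 16931 in iPSC. Pairs of domains that overlapped each other more than any other domain numbered 12560. In 5000 of them both domains were off H3K9me3, with a median width of 2.62 kb in ESC and 0.836 kb in iPSC, and the iPSC domain was the narrower in 73.4%. In 4650 pairs both were on H3K9me3, with medians of 3.05 and 3.37 kb, and the iPSC domain was the narrower in 53.1%. Pairs with H3K9me3 on the ESC side only (1676) had the narrower domain in iPSC in 84.4%, and pairs with it on the iPSC side only (1234) in 32.1%. A domain has more room to touch H3K9me3 the wider it is, so these last shares are partly set by how the pairs were split. In the 1470 ESC domains of 5 to 20 kb that were off H3K9me3 and met an iPSC domain, iPSC H3K27me3 covered a median of 0.445 times the base pairs of ESC (quartiles 0.269 to 0.611). It covered fewer in 1431 of the 1470. The class was set by the ESC width, and the reverse view gave the same order: in the 800 iPSC domains of 5 to 20 kb off H3K9me3 that met an ESC domain, ESC H3K27me3 covered a median of 1.20 times the base pairs of iPSC (quartiles 1.04 to 1.43) and covered more in 637. A change of calling depth would also change widths, and the part of depth in this result was not tested.

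Most wide ESC domains had an iPSC counterpart, and many of these fell in a narrower class. Of the 478 ESC domains over 20 kb, 227 had their main iPSC counterpart over 20 kb, 235 at 5 to 20 kb, 10 at 1 to 5 kb and 5 under 1 kb. A single domain had none. Of the 3866 ESC domains of 5 to 20 kb, 1550 had the counterpart in the same class, 1488 at 1 to 5 kb, 444 under 1 kb, 61 over 20 kb and 323 had none. Splitting was part of this: 237 of 477 ESC domains over 20 kb met 1 iPSC domain, and the others met up to 8. In the other direction, 239 of 689 iPSC domains over 20 kb had a main ESC counterpart over 20 kb, 42 at 5 to 20 kb, 57 at 1 to 5 kb, 61 under 1 kb and 290 none. All 290 were on H3K9me3. Each of the 40 iPSC domains over 20 kb off H3K9me3 met exactly 1 ESC domain over 20 kb.

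H3K27me3 domains over 20 kb in iPSC fell into 2 kinds by their H3K9me3 content. In 187 of the 689, H3K9me3 covered at most 10% of the length. In 424 it covered at least 50%, and 78 lay between. Of the 478 ESC domains over 20 kb, 362 had at most 10% and 2 at least 50%, although 89.3% of them touched an H3K9me3 peak somewhere. A domain of this width that is on H3K9me3 thus differed between the cell types: H3K9me3 covered 8.02% of the length of such domains in ESC and 62.4% in iPSC.

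The iPSC domains over 20 kb with little H3K9me3 lay where ESC had H3K27me3 too, together with H3K4me3. ESC H3K27me3 covered 90.3% of the length of the 187, and 184 of them were in common. H3K4me3 covered 60.6% of it in iPSC and 56.8% in ESC, against 5.42% and 5.20% of the autosomes. H3K27ac covered 0.318% and 0.901%, against 2.10% and 3.95% of the autosomes. The authors' fold enrichment had a median of 4.20 in these domains. The 424 domains rich in H3K9me3 had a median of 2.85 in the same list. ESC H3K27me3 covered 2.34% of their length, close to its autosomal level of 2.08%, and 140 of the 424 (33.0%) touched an ESC peak. H3K4me3 covered 2.11% of it in iPSC and 4.80% in ESC, both below the autosomal levels. These domains were chains of separate peaks, a median of 17.5 a domain, that filled 51.2% of the length. At a −log10 q of at least 3 the number of domains rich in H3K9me3 was 29, and that of domains with at most 10% was 115. With only overlapping or touching peaks joined, the numbers were 2 and 37.

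**Figure D3:**
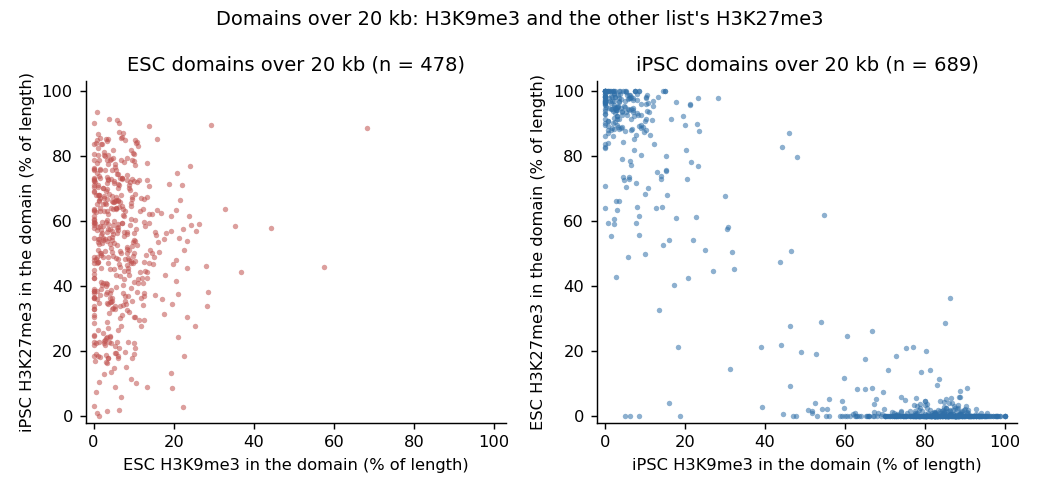
Each point is a domain over 20 kb, of ESC (left, 478) or iPSC (right, 689), placed by the percent of its length in H3K9me3 of the same cell type (horizontal axis) and in H3K27me3 of the other cell type (vertical axis). The ESC domains lie at low H3K9me3, and the iPSC domains form a group at upper left and another at lower right.

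The iPSC domains rich in H3K9me3 differed in what ESC had at the same place. H3K9me3 coverage was at least 20 percentage points higher in iPSC in 29 of 2584 autosomal bins of 1 Mb, and 214 of the 424 domains lay at least partly in these bins. There ESC H3K9me3 covered a median of 12.8% of a domain (quartiles 8.64 to 20.4), which follows from how the bins were chosen. In the 210 domains outside the bins it covered a median of 80.0% (quartiles 65.4 to 88.7), and in 172 of the 210 it covered at least 50%. So outside the bins H3K9me3 was present in both cell types and H3K27me3 in iPSC. ESC H3K27me3 covered 2.48% of the length inside the bins and 2.11% outside. Among iPSC domains of 5 to 20 kb, 2437 of 5144 had at least 50% H3K9me3, 338 of them in the bins. In 1929 of the 2099 outside, ESC H3K9me3 also covered at least 50%, and 246 of the 2099 were in common.

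Narrow domains made up most of the one-sided regions, as they did of all domains. One-sided iPSC domains lay mostly on sequence with H3K9me3 in both cell types, as did iPSC domains in general. Of 68365 one-sided iPSC domains, 48342 were under 1 kb, a class that held 65.8% of all iPSC domains. On H3K9me3 were 58499 (85.6%), against 79.3% of all iPSC domains. Of the 58499, 96.5% also touched ESC H3K9me3, against 81.9% of all iPSC domains and 95.7% of all iPSC domains on H3K9me3. H3K4me3 of iPSC was found in 20.8% of the 58499, against 33.0% of all iPSC domains and 26.1% of all those on H3K9me3. That of ESC was found in 29.9%, against 39.4% and 34.3%. The 7065 iPSC domains off H3K9me3 and in common had H3K4me3 in 83.1%. The 9866 iPSC domains off H3K9me3 and one-sided had it in 42.6%, against 59.5% of all iPSC domains off H3K9me3. ESC H3K9me3 touched 35.6% of these 9866, against 29.1% of all iPSC domains off H3K9me3. The domains in common were wider than the one-sided, with medians of 0.924 and 0.303 kb. Under 1 kb the shares with iPSC H3K4me3 were 69.9% in common and 41.2% one-sided.

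One-sided ESC domains were of another make. Of 17041, 13742 were under 1 kb, a class that held 61.1% of all ESC domains. Off H3K9me3 were 14494, and 14.9% of the 17041 were on it, against 30.3% of all ESC domains. Of these 14494, 38.3% had ESC H3K4me3, against 55.9% of all ESC domains and 53.4% of all ESC domains off H3K9me3. IPSC H3K9me3 touched 3.03% of the 14494, against 24.6% of all ESC domains and 6.79% of all those off H3K9me3. The 6316 ESC domains off H3K9me3 and in common had H3K4me3 in 88.2% in ESC and 88.9% in iPSC. These were also wider, with a median of 2.28 kb against 0.378 kb in the 14494. Under 1 kb the shares with ESC H3K4me3 were 75.8% in common and 31.6% one-sided. H3K4me3 of iPSC was found in 39.6% of the one-sided ESC domains off H3K9me3, against 56.8% of all ESC domains and 54.6% of all those off H3K9me3. One-sided ESC domains lay a median of 7.70 kb from the nearest iPSC domain, and one-sided iPSC domains 46.5 kb from the nearest ESC domain. The denser iPSC list makes the first distance shorter.

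The share of H3K27me3 domains with H3K4me3 rose with width in both cell types, and in iPSC it was higher off H3K9me3 than on it in each class. In ESC 36.8% of domains under 1 kb had H3K4me3, 79.1% at 1 to 5 kb, 96.6% at 5 to 20 kb and all 478 over 20 kb. In iPSC domains off H3K9me3 these shares were 49.2%, 92.3%, 99.8% and all 40. On H3K9me3 they were 15.7%, 36.9%, 68.3% and 79.2%. A wide domain has more room for any peak. The length covered by H3K4me3 was 41.6% under 1 kb and 68.8% over 20 kb in iPSC domains off H3K9me3, and 8.89% and 16.2% in those on it. H3K27ac, a mark of active promoters and enhancers that excludes H3K27me3 on the same residue, went the other way by length: it covered 14.3% of ESC domains under 1 kb and 0.959% of those over 20 kb. In iPSC the values were 6.10% and 0.222%. H3K27ac touched 28.2% of all ESC domains and 11.4% of all iPSC domains. The ESC H3K27ac list was the longer one, covering 3.95% of the autosomes against 2.10% in iPSC. Relative to these levels, H3K27ac coverage of the length of all domains was 0.955 times the autosomal level in ESC and 0.953 times in iPSC. The ratios differed between cell types when domains were split by H3K9me3. Off H3K9me3 they were 1.45 in ESC and 3.45 in iPSC, and on H3K9me3 0.596 and 0.561.

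Across wide shared domains H3K27me3 of both cell types was densest in the middle. In the 361 shared ESC domains over 20 kb with at most 10% H3K9me3, iPSC H3K27me3 covered 25.1% and 22.4% of the first and last of 10 equal parts of the length. It covered 67.8% and 69.1% of the 2 middle parts. ESC H3K27me3, by which the ends were set, covered 60.7% and 58.0% of the outermost and 86.3% and 87.8% of the middle parts. The iPSC list thus missed more at the ends than in the middle. H3K4me3 had nearly the same profile in both cell types, with 21.6% in ESC and 23.1% in iPSC in the first part and 52.8% and 55.2% in part 5. In the 184 shared iPSC domains of the same kind, ESC H3K27me3 covered 81.1% and 85.7% of the outermost parts and 92.8% and 94.8% of the middle ones. It exceeded the iPSC values in each of the 10 parts.

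**Figure D4:**
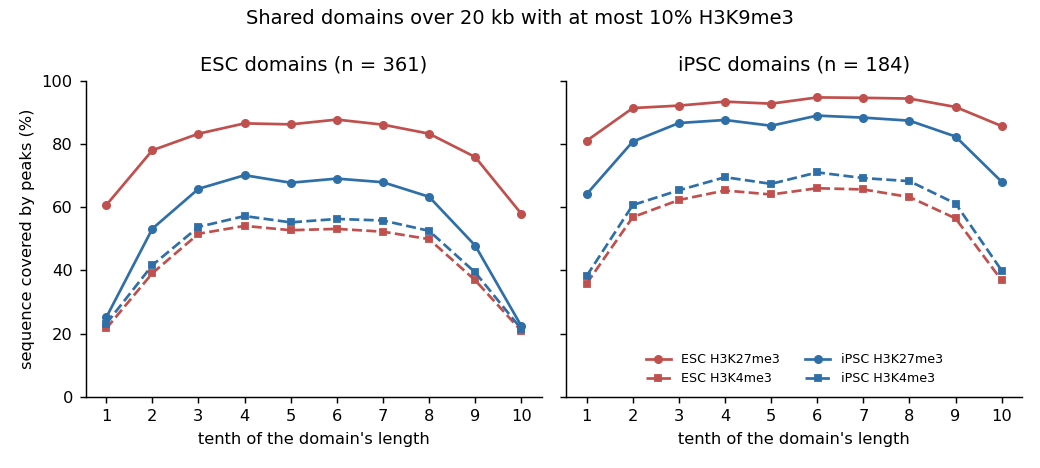
Percent of sequence covered by H3K27me3 (solid lines) and H3K4me3 (dashed lines) of ESC (red) and iPSC (blue) in each of 10 equal parts of the length of shared domains over 20 kb with at most 10% H3K9me3, for 361 ESC domains (left) and 184 iPSC domains (right). ESC H3K27me3 lies above iPSC H3K27me3 in all parts of both panels, and the 2 H3K4me3 lines lie close together.

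At the scale of 1 Mb the H3K27me3 outside H3K9me3 had the same layout along the autosomes in both cell types. Over 2584 bins, its coverage in ESC and iPSC was related with a Spearman's rho of 0.914 and a Pearson's r of 0.923, as a description of neighbouring bins that share gene density. Inside H3K9me3 the values were 0.329 and 0.207. ESC covered more of a bin outside H3K9me3, 1.87% ± 2.54 against 1.24% ± 1.68 in iPSC (SD over bins). Inside H3K9me3 it covered 0.203% ± 0.343 and iPSC 2.20% ± 3.79. In the 29 bins with more iPSC H3K9me3, H3K27me3 covered 31.3% ± 15.0 in iPSC and 2.30% ± 2.23 in ESC, with the lowest iPSC bin at 4.89% and the highest ESC bin at 8.40%, so that the ranges overlapped. These 29 bins held 10.2% of the iPSC H3K27me3 sequence and 1.25% of that of ESC. In the other 2555 bins the means were 3.12% ± 2.66 and 2.07% ± 2.80, and iPSC covered more in 2095.

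**Figure D5:**
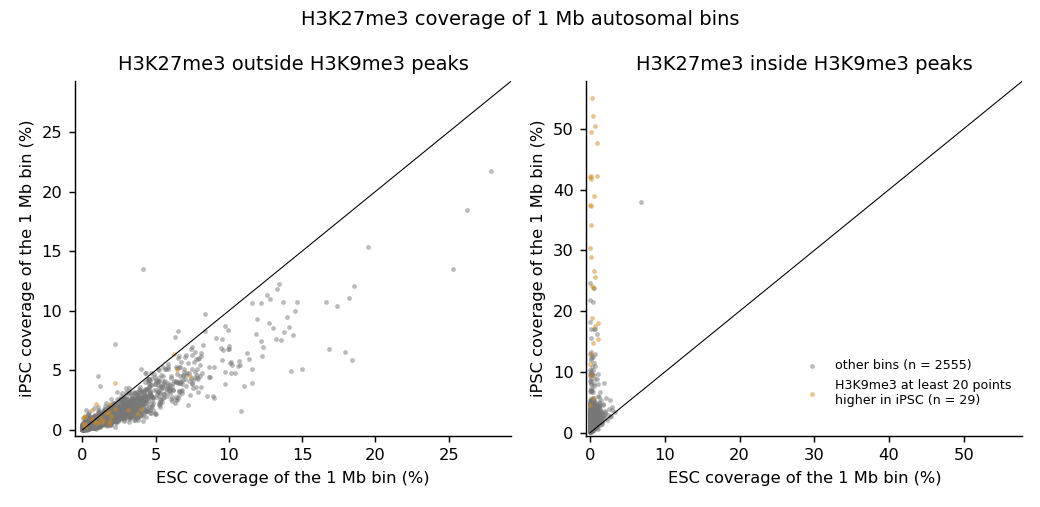
Each point is a 1 Mb autosomal bin, placed by its H3K27me3 coverage in ESC (horizontal axis, %) and iPSC (vertical axis, %), outside H3K9me3 peaks (left) and inside them (right), with the 29 bins of higher iPSC H3K9me3 in orange and the line of equal values in black. ESC is higher in 1884 of 2584 bins on the left, and iPSC in 2576 on the right.

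The same split held on each chromosome. Outside H3K9me3, ESC H3K27me3 covered more than iPSC on all 20 autosomes, 2.03% ± 0.850 against 1.36% ± 0.589 (SD over chromosomes). Inside H3K9me3, iPSC covered more on all 20, 2.41% ± 1.17 against 0.226% ± 0.094. In total iPSC covered more on 19 of 20. The exception was chromosome 16, with 4.62% in ESC and 4.06% in iPSC. Domains off H3K9me3 were in common more often in iPSC than in ESC on all 20, and domains on H3K9me3 less often on all 20. Chromosome 19, the shortest, had the highest iPSC coverage at 9.24% and held 83 of the 689 iPSC domains over 20 kb and 18 of the 478 of ESC.

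The widest domains show both kinds. Coordinates are those of the lists, whose build is unknown here, so no gene is named. The widest ESC domain, 49979385 to 50214767 of chromosome 11 (235 kb), was a dense block in both cell types. H3K27me3 covered 94.8% of it in ESC and 84.4% in iPSC, H3K4me3 52.5% and 53.7%, H3K9me3 10.8% and 9.59%, and no H3K27ac peak lay in it. The next, 84079185 to 84261403 of chromosome 3 (182 kb), had 95% and 90.2% H3K27me3, 59.6% and 65.6% H3K4me3 and no H3K27ac. Their main iPSC counterparts were 214 and 177 kb wide. The third, 68131867 to 68299679 of chromosome 20 (168 kb), was broken up in iPSC: it met 8 iPSC domains, and H3K27me3 covered 79.0% of it in ESC and 42.2% in iPSC.

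The 3 widest ESC domains free of H3K9me3 were shorter than the 3 widest on it. A domain is on H3K9me3 from 1 bp, and 427 of 478 ESC domains over 20 kb were. This order is thus partly set by the split. All 3 domains free of it were also found in iPSC. The first, 74639376 to 74690828 of chromosome 15 (51.5 kb), had 75.3% H3K27me3 in ESC and 47.2% in iPSC and no H3K9me3 in either. The next, 57814788 to 57859328 of chromosome 12 (44.5 kb), had 90% and 72.8%. The third, 93231896 to 93276226 of chromosome 9 (44.3 kb), had 76.2% and 39.2%. H3K4me3 covered 27.4% to 59.0% of the 3 in ESC. In iPSC the widest free of H3K9me3 were 108289990 to 108332000 of chromosome 12 (42.0 kb), 10734774 to 10772410 of chromosome 15 (37.6 kb) and 20056942 to 20091558 of chromosome 8 (34.6 kb). ESC H3K27me3 covered 93.0% to 96.2% of them, and each met 1 ESC domain.

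By fold, the 3 highest-ranking ESC domains over 20 kb were compact and shared. At 105503370 to 105551857 of chromosome 3 (48.5 kb) the mean fold was 11.3, and H3K27me3 covered 90.9% in ESC and 80.2% in iPSC. At 88132157 to 88190936 of chromosome 6 (58.8 kb) it was 11.2, with 91.7% and 84.9%. The third was the 182 kb domain of chromosome 3, with 10.7. In iPSC the highest, at 83342244 to 83379345 of chromosome 9 (37.1 kb), had a mean fold of 5.80 and met a 63.5 kb ESC domain, and ESC H3K27me3 covered 97.2% of it. The others lay at 7227329 to 7271375 of chromosome 17 (44.0 kb, ESC coverage 95.5%) and at 26858501 to 26885152 of chromosome 20 (26.7 kb, 91.1%). None of these 6 held H3K27ac in either cell type.

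Some domains were nearly the same length in both lists. Among ESC domains covered by iPSC H3K27me3 over at least 90%, the widest after the 182 kb one were 33910773 to 33948199 (37.4 kb) of chromosome 3 and 96229630 to 96258472 (28.8 kb) of chromosome 4. Their main iPSC counterparts spanned 36.3 and 27.3 kb. Only 5 of 477 shared ESC domains over 20 kb were covered to that extent by iPSC, and 152 of 399 shared iPSC domains over 20 kb by ESC. The widest of the latter were the counterparts of the domains of chromosomes 11 and 3 and one at 30146898 to 30286392 of chromosome 16 (139 kb), with 92.5% ESC H3K27me3.

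Of the 3 widest iPSC domains, ESC H3K27me3 covered little of the first 2 and more of the third. At 133889309 to 134263180 of chromosome 8 (374 kb), 184 iPSC peaks covered 60.1% and ESC peaks 3.15%, while H3K9me3 covered 90.1% in iPSC and 6.78% in ESC. At 23440048 to 23790909 of chromosome 19 (351 kb) the H3K27me3 values were 56.9% and 5.26%, and the H3K9me3 values 85.3% and 13.4%. At 189636 to 534187 of chromosome 12 (345 kb) H3K9me3 was high in both, 76.9% in iPSC and 67.0% in ESC, with H3K27me3 over 61.7% and 21.2%, and it met 15 ESC domains, the main one of 55.3 kb. H3K9me3 was thus much higher in iPSC at the first 2 places and high in both cell types at the third.

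One-sided domains over 20 kb numbered 1 in ESC and 290 in iPSC at the joining distance and threshold used. The only ESC domain over 20 kb without an iPSC peak lay at 29991225 to 30013469 of chromosome 16 (22.2 kb), with 11 peaks over 32.5% of it and 1.48% H3K9me3. Next on H3K9me3 were 46197162 to 46211577 of chromosome 14 (14.4 kb) and 157684263 to 157698390 of chromosome 1 (14.1 kb). Off H3K9me3 the widest were 75840049 to 75854425 of chromosome 8, 48778872 to 48792928 of chromosome 11 and 28722034 to 28736063 of chromosome 16, each of 14.0 to 14.4 kb and sparsely filled, between 31.1% and 53.3%.

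The share of one-sided domains among iPSC domains over 20 kb changed with the joining and with the strictest threshold. As reported, 399 of 689 (57.9%) were in common and 290 were one-sided. With only overlapping or touching peaks joined, 49 of 51 were in common, and at a −log10 q of at least 3 it was 149 of 173. At a −log10 q of at least 2 it was 256 of 458 (55.9%), close to the reported share. The widest of the 290, 7198501 to 7327438 of chromosome 20 (129 kb), had H3K9me3 over 88.0% in iPSC and 4.26% in ESC. The next, 478230 to 568992 of chromosome 9 (90.8 kb) and 33185808 to 33274889 of chromosome 3 (89.1 kb), had H3K9me3 in both cell types, 88.8% and 89.2% in iPSC and 92.6% and 80.1% in ESC. Off H3K9me3 the widest one-sided iPSC domains were short: 124062748 to 124073373 of chromosome 5 (10.6 kb), 1016934 to 1026622 of chromosome 20 (9.69 kb) and 28774439 to 28782111 of chromosome 8 (7.67 kb). Of these, the domain of chromosome 20 had H3K27ac over 14.4% in ESC and none in iPSC, and that of chromosome 8 over 12.3% and 5.30%.

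Strength and width went together with sharing inside each list. The authors' fold, averaged over the peaks of a domain by width, had a median of 2.85 in ESC domains under 1 kb, 3.11 at 1 to 5 kb, 4.15 at 5 to 20 kb and 6.28 over 20 kb. In iPSC the medians were 2.66, 2.77, 2.89 and 2.95, and off H3K9me3 they were 2.56, 2.80, 3.16 and 4.18. Within a class the stronger domains were more often in common. Of ESC domains of 1 to 5 kb off H3K9me3, 84.9% were in common in the strongest of 5 equal groups by fold and 24.7% in the weakest. Of iPSC domains of 5 to 20 kb on H3K9me3, 84.8% and 27.8% were in common in these groups. Under 1 kb on H3K9me3 the shares lay closer together, 59.8% and 55.3% in ESC and 7.37% and 3.07% in iPSC.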

How the data were processed

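H3K27me3 was taken from 1 deposited peak list per cell type, and H3K9me3, H3K4me3 and H3K27ac from the lists of the same cell types. The tools listed in the submitters' processing notes are deepTools, MACS2, Picard and SAMtools 1.10. For aligner, build, thresholds and pooling of libraries, nothing is stated in the sources used here. The fold enrichment of each peak is a deposited ratio made by the authors' caller. The −log10 q of each peak was also deposited by the authors, with a lowest value of 1.00 in the H3K27me3 lists. Both were used only within a list. No counts were used, so depth is unknown.

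Rows of chromosomes 1 to 20 were kept. Domains, classes (1, 5 and 20 kb) and overlaps were computed with Python 3.11.15, numpy 2.4.6, pandas 2.3.3 and SciPy 1.17.1, and the interval code was checked base by base on simulated data. A domain's gaps count towards its length. Autosome length (2594 Mb) is the sum of the furthest peak ends. The regions named are, per cell type, the 3 widest domains on and off H3K9me3, the 3 widest one-sided of each, the 3 of highest mean fold over 20 kb and the 3 widest covered to at least 90% by the other list. The regions, classes and measures were chosen with earlier results of these data known. No genome or annotation of the lists' build was used, so no gene or sequence is printed. Each list gave 1 value per cell type, so no test was run. 8 alternatives were tried, 7 of them planned.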

Additional observations from a re-analysis of the deposited data

How the results depend on the processing

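No paired analysis was possible because each cell type had 1 list per mark, with no columns for replicates, and no library could be left out. Shares are given in the order ESC all, off and on H3K9me3, then iPSC all, off and on, with 42.9%, 30.4%, 71.8%, 16.2%, 41.7% and 9.55% as reported. With only overlapping or touching peaks joined they were 36.7%, 28.1%, 67.7%, 17.3%, 51.2% and 6.95%. At a −log10 q of at least 2 they were 44.9%, 32.8%, 70.6%, 16.1%, 52.9% and 8.62%, and at 3 they were 43.7%, 31.6%, 66.0%, 19.5%, 57.6% and 10.7%. Requiring domains of the other list to cover 50% of the domain gave 27.5%, 18.3%, 48.9%, 12.4%, 36.0% and 6.18%. With the iPSC list cut to the ESC number of peaks they were 26.5%, 16.6%, 49.4%, 21.7%, 66.5% and 12.4%. Where on H3K9me3 meant at least 50% of the domain, the off and on shares were 40.4% and 61.2% in ESC and 39.7% and 4.56% in iPSC, and with H3K9me3 at a −log10 q of at least 2 they were 32.0% and 74.6%, and 36.4% and 8.41%. Without the 29 bins of higher iPSC H3K9me3, an alternative added after the data were examined, the ESC share was 42.3%, and the others stayed within their intervals. In all 9 settings the off share was below the on share in ESC and above it in iPSC, over all widths; the cause of the shifts was not tested. Among the class values, 125 of 176 left the interval of the reported value.

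The base pairs on H3K9me3, 9.93% in ESC and 64.2% in iPSC, were 8.75% and 48.6% at a −log10 q of at least 3, and 8.39% and 61.1% with H3K9me3 limited to at least 2. They were 58.9% in iPSC with its list cut and 60.7% without the 29 bins. The number of iPSC domains over 20 kb with at least 50% H3K9me3, 424 as reported, was 278 at a −log10 q of at least 2, 102 with the list cut and 214 when the peaks in the bins were left out before joining (210 of the 424 lay outside the bins, and joining what remained at the edges of the bins gave the others). These checks were added after the data were examined. Unknown depth limits every count and width.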
